A study of Drosophila melanogaster with 17 samples.

Results

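The 126 gustatory and ionotropic receptor genes of Drosophila were followed through sorted cells of the adult midgut. The members were taken by name, as every feature of the table whose FlyBase symbol starts with Gr or Ir directly followed by a digit. They were 60 Gr and 66 Ir genes among 17490 features, and 37 of them lie on chromosome arm 2R. Expression was measured by RNA sequencing of about 10000 GFP-labelled cells per library, sorted at day 3 of adult life, with amplified RNA. The wild type groups were intestinal progenitors (5 libraries, titled ESG), enteroendocrine cells (EE, 3 libraries) and libraries labelled EC (3 libraries). The last are called enterocytes by their titles and cell type label but enteroblasts by their source name. In the other groups, sorted progenitors carried Sox100B RNA interference (Sox100B-RNAi, 3 libraries) or were labelled as overexpressing Sox100B (Sox100B-OE, 3 libraries). The labels name no driver line, sex or strain, and they do not say whether replicates came from separate flies. The p-values below therefore measure the spread between libraries, which may be technical.

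Gustatory receptors are membrane proteins with many transmembrane segments that were first described in the taste neurons of the fly, where sugar receptors and bitter receptors mark different neurons. Ionotropic receptors descend from ionotropic glutamate receptors and form channels in which a tuning subunit is joined by a broadly used co-receptor. Besides taste and smell, members of both families act in the sensing of temperature, humidity, carbon dioxide and internal nutrients. Enteroendocrine cells are the hormone-secreting cells of the midgut epithelium, and chemical sensing in the gut lumen is one of the roles ascribed to them.

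The deposited values are RPKM, read counts scaled by the length of the gene and by the read total of the library. Each wild type library had an implied total of about 24100000 to 59400000 reads, each Sox100B library 17400000 to 29400000, and the 126 genes together held 536 to 5965 implied reads per library. For a gene with 1.5 kb of exons, 3 reads corresponded to an RPKM of 0.0336 to 0.115, so values below about 0.1 rest on a few reads. The labelled cell types were set against marker lists. The 11 enteroendocrine markers summed to 87534 to 102770 RPKM in EE, 5964 to 12007 in progenitors and 883 to 3712 in the libraries labelled EC. The 10 enterocyte markers summed to 859 to 2759 RPKM in the libraries labelled EC and to 1050 to 1988 in EE, which overlapped. Progenitors had 305 to 547. Myo31DF and mex1 went the other way, with means of 75.5 and 179 RPKM in progenitors and 26.4 and 101 in the libraries labelled EC. The 6 progenitor and enteroblast markers found summed to 416 to 1322 RPKM in progenitors and 101 to 175 in EE. Those of the libraries labelled EC, 543 to 782, lay within the progenitor range. Whether these libraries hold enterocytes or enteroblasts was not tested. In bulk samples, fewer cells of a type and less RNA per cell cannot be told apart.

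Few of the receptor genes were above a low level in any wild type cell type. A mean RPKM of at least 1 was reached by 14 of the 126 genes (11.1%), of which 9 were Gr and 5 Ir genes. In EE 11 genes reached it, in progenitors 5 and in the libraries labelled EC 3. Of the 14 genes, 8 reached it in EE alone, namely Ir85a, Gr28b, Gr43a, Ir21a, Gr2a, Gr64f, Gr93a and Ir25a. Gr89a and Ir76a reached it in all 3 cell types, Gr61a in progenitors and EE, Ir10a and Gr47b in progenitors alone and Gr93b in the libraries labelled EC alone. Of all 126 genes, 102 had a mean below 0.5 and 84 a mean below 0.1 in every wild type cell type. At a single read the view was wider, since 107 genes had at least 1 implied read in some progenitor library, 90 in some library labelled EC and 83 in some EE library. Progenitors had 5 libraries against 3, which favours this count. In single libraries 55 to 82 genes had a read in progenitors, 56 to 75 in those labelled EC and 60 to 66 in EE. A read in every library of the type was held by 33, 35 and 46 genes. Counted by single libraries, 18 genes reached RPKM 1 in at least 1 wild type library, and 9 reached it in every library of a cell type.

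**Figure D1:**
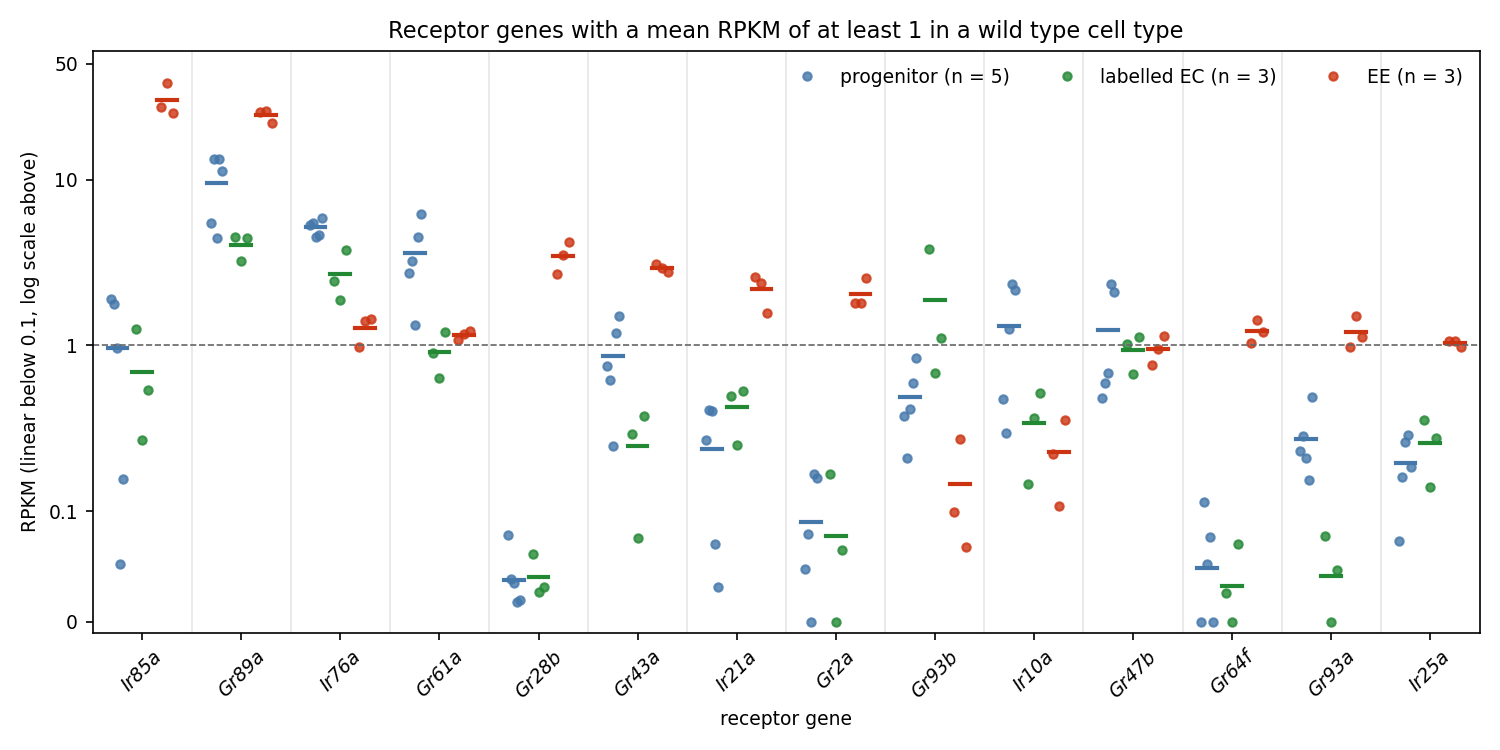
RPKM of the 14 receptor genes that reached a mean of 1 in a wild type cell type, ordered by their highest mean. Each point is a library, short bars are group means, the dashed line marks RPKM 1, and the axis is linear below 0.1 and logarithmic above. Ir85a and Gr89a stand above 20 RPKM in every EE library, while Ir76a and Gr61a are highest in progenitors.

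The genes that reached RPKM 1 are scattered over the genome of build BDGP6, and all are annotated as protein coding. On 2L lie Gr28b (FBgn0045495) at 2L:7454826-7462247 on the minus strand, Ir21a (FBgn0031209) at 2L:21823-25155 on the minus strand and Ir25a (FBgn0031634) at 2L:4830846-4835300 on the minus strand. On 2R lie Gr43a (FBgn0041243) at 2R:7390869-7393161 on the minus strand and Gr47b (FBgn0041241) at 2R:11361900-11363405 on the plus strand. On 3L lie Ir76a (FBgn0260874) at 3L:19799278-19803427 on the plus strand, Gr61a (FBgn0035167) at 3L:841451-843701 on the plus strand and Gr64f (FBgn0052255) at 3L:4035799-4037575 on the plus strand. On 3R, beside Ir85a (FBgn0037630) and Gr89a (FBgn0038440), which are described below, lie Gr93a (FBgn0041229) at 3R:21832503-21834013 on the plus strand and Gr93b (FBgn0045470) at 3R:21842521-21843765 on the minus strand. The X chromosome holds Gr2a (FBgn0265139) at X:1452430-1454177 on the plus strand and Ir10a (FBgn0083979) at X:11308533-11311208 on the minus strand. Of these 14 genes, Ir85a, Ir76a, Gr43a, Ir21a, Gr2a and Gr64f share exonic bases with another gene.

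The summed level of the 126 genes was 81.5 ± 8.84 RPKM (SD, n = 3) in EE. It was 30.7 ± 8.71 RPKM (SD, n = 5) in progenitors, and the libraries labelled EC had 18.5 ± 5.14 (SD, n = 3). The EE libraries had 74.7 to 91.5 RPKM and did not overlap the 21.1 to 39.8 of progenitors or the 12.6 to 22.4 of the libraries labelled EC. Ir85a and Gr89a made up 67.2 ± 3.52% (SD, n = 3) of the EE sum. Without both genes the sums were 26.6 ± 1.41 RPKM (SD, n = 3) in EE and 20.1 ± 5.88 (SD, n = 5) in progenitors, while the libraries labelled EC had 13.7 ± 4.04 (SD, n = 3), and EE (24.9 to 27.4) then overlapped progenitors (14.8 to 26.6).

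**Figure D2:**
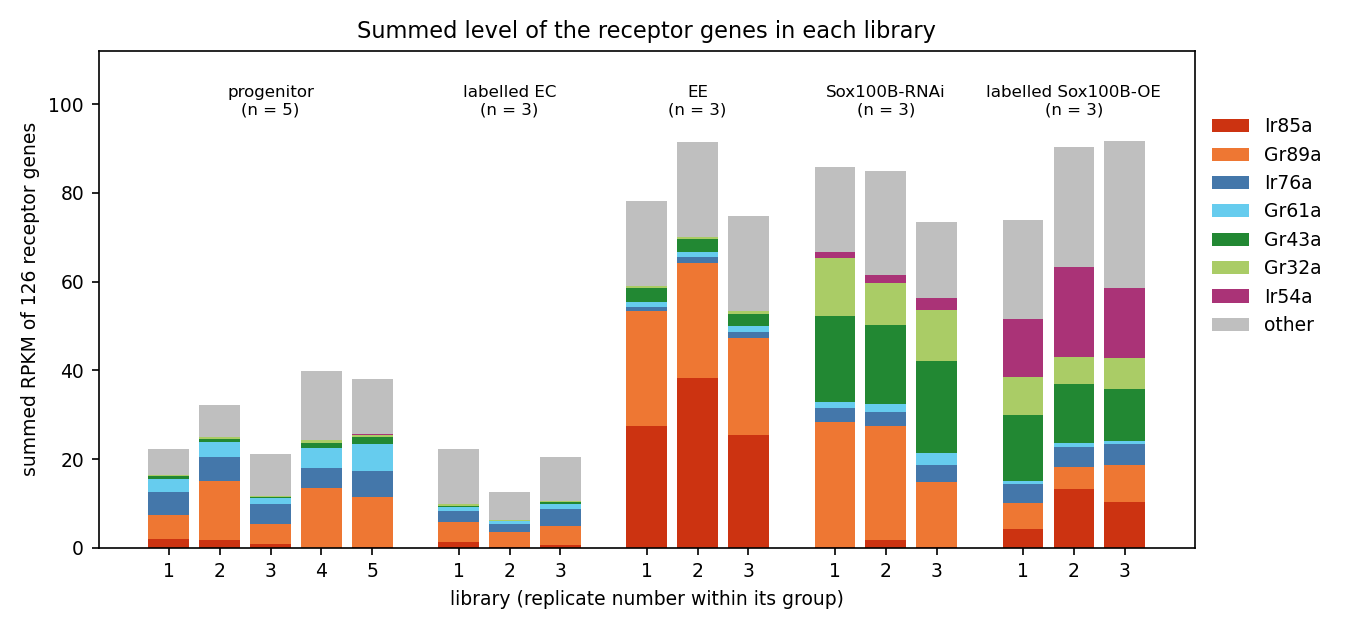
Summed RPKM of the 126 receptor genes in each of the 17 libraries, stacked by 7 selected genes and all others in grey. The EE sums consist mainly of Ir85a and Gr89a. Of the 7 genes, Gr89a, Gr43a and Gr32a hold the largest parts in Sox100B-RNAi (means of 27.6, 24.0 and 14.0%). In the libraries labelled Sox100B-OE these are Ir54a, Gr43a and Ir85a (19.1, 15.8 and 10.6%).

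Ir85a, a divergent ionotropic receptor, had the highest level of all members. It was at 27.5, 38.2 and 25.4 RPKM in EE. Progenitors had 1.89, 1.77, 0.968, 0.0520 and 0.155, and the libraries labelled EC had 1.25, 0.270 and 0.535. Every EE library was thus above every other wild type library, and the mean in EE was 31.4 times that in progenitors and 44.3 times that in the libraries labelled EC. The progenitor libraries themselves fell into replicates 1 to 3, with higher values, and replicates 4 and 5, with values under 0.2. The gene lies at 3R:8794684-8796966 on the plus strand of BDGP6, and 232 of its 2139 exonic bases overlap the genes Pif1A and Pif1B on the opposite strand, both of which were below 0.01 RPKM on average in each wild type cell type.

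Gr89a, expressed in bitter-sensing taste neurons, came next. Its EE libraries had 25.8, 26.0 and 21.8 RPKM, those labelled EC had 4.48, 3.25 and 4.42, and progenitors had 5.49, 13.3, 4.46, 13.4 and 11.2. It was therefore well above RPKM 1 in all 11 wild type libraries, and highest in EE. The mean in EE was 2.56 times that in progenitors and 6.05 times that in the libraries labelled EC. Gr89a lies at 3R:16497817-16498959 on the minus strand and shares no exonic base with another gene.

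EE were compared with progenitors by limma on log2(RPKM + 1), over the 8161 features that reached RPKM 1 in 3 or more of the 8 libraries, with Benjamini-Hochberg adjustment over the whole set. The threshold for a call was an adjusted p under 0.01 together with a difference of more than 0.5 in either direction. Of the 11 receptor genes tested, 7 rose in EE and 1 fell, against 20.1% of all features called higher and 14.5% called lower. Of these 11 genes, 4 (Gr28b, Gr2a, Ir21a and Gr64f) passed the filter through the EE libraries alone and had to differ, so the count is not read as a share of the families. When any EE library was left out, fewer genes could pass the filter (6 to 7), and 2 were called. Without the filter, 10 of the 126 genes (7.94%) were called higher and 1 lower, beside 8.58% of all 17489 features called higher, a share near the background. The median difference of all tested features was -0.05.

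Against the libraries labelled EC, 7 of the 10 receptor genes tested were called higher in EE and 0 lower, where 26.5% of the 7847 features were called higher and 6.22% lower. Here 5 of the 10 (Gr28b, Gr43a, Ir21a, Gr2a and Gr64f) had passed the filter through EE alone and had to differ. When any EE library was left out 4 to 5 could be tested and 2 were called. At an unadjusted limma p under 0.05, 8 of the 10 genes differed, as did 4509 of the 7847 features. By limma-voom on implied reads, 11 of 29 genes were called higher and 1 lower, beside 1834 and 630 of 9833 features. Without the filter, 9 of 126 genes (7.14%) were called higher beside 7.42% of all features. All features together were shifted by a median of 0.45 towards EE, and by 0.06 after median-of-ratios scaling. With that scaling 6 of 8 genes were called higher and 1, Ir76a, lower, beside 1417 and 873 of 7794 features. The comparisons with progenitors and with the libraries labelled EC share the EE libraries, so their values are given side by side and not as support for each other.

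Ir85a rose by 4.10 ± 0.37 (SE; limma adjusted p = 1.67e-05) on the log2(RPKM + 1) scale against progenitors and by 4.24 ± 0.29 (SE; limma adjusted p = 1.73e-05) against the libraries labelled EC. Gr89a rose by 1.38 ± 0.34 (SE; limma adjusted p = 0.00822) and 2.34 ± 0.24 (SE; limma adjusted p = 9.71e-05). The Gr89a call against progenitors was lost in 8 of 18 alternatives, among them the removal of any EE library or of progenitor replicate 1 or 5 (highest adjusted p = 0.0375). The plot of differences shows the same order of size in both comparisons for Ir85a, Gr28b and Gr2a, and a larger difference of Gr89a against the libraries labelled EC.

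**Figure D3:**
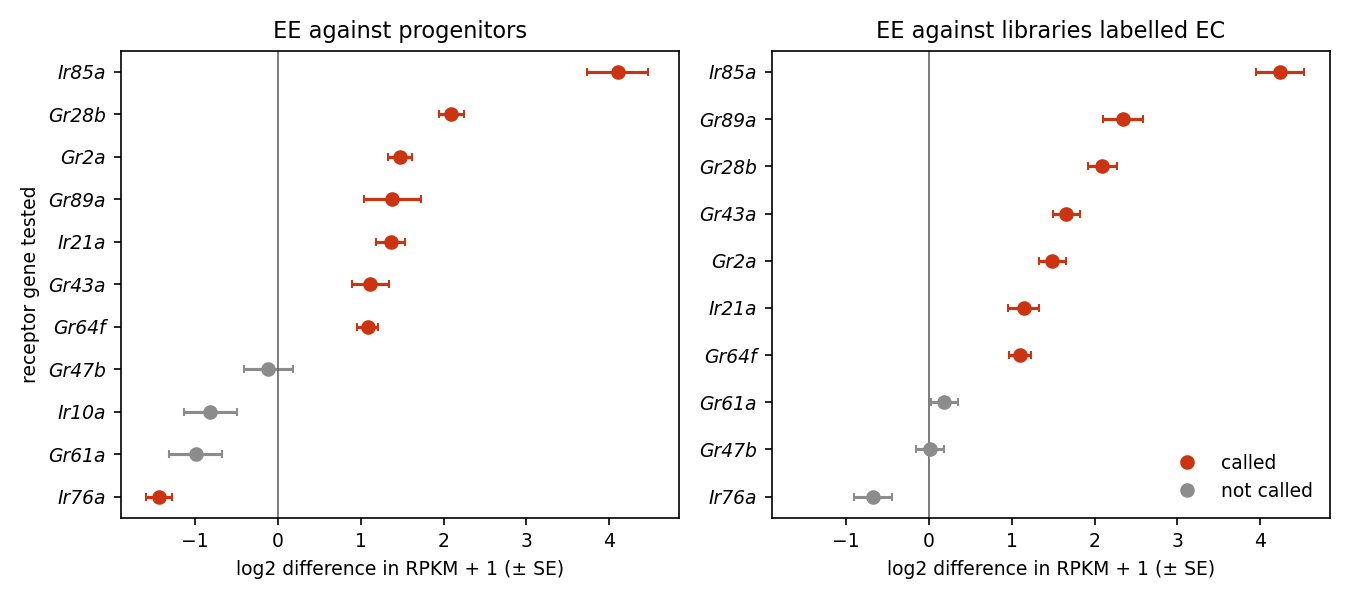
Difference in log2(RPKM + 1) between EE and progenitors (left) and between EE and libraries labelled EC (right) for every receptor gene tested, with limma standard errors. Red points were called (adjusted p below 0.01 and absolute difference above 0.5) and grey points were not; 7 genes lie to the right in red in both panels, and Ir76a is called only on the left.

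Gr28b, a broadly used receptor with a role in warmth sensing, was high in EE and near the limit of detection elsewhere. EE had 2.71, 3.53 and 4.18 RPKM from 1631 implied reads, progenitors 0.0174 to 0.0784 from 21 reads and the libraries labelled EC 0.0271 to 0.0612 from 18 reads. The EE mean was 91.8 times that of progenitors and 87.0 times that of the libraries labelled EC, the largest ratio among the called genes of each comparison. On the log2(RPKM + 1) scale, which understates changes of low genes, it rose by 2.10 ± 0.15 (SE; limma adjusted p = 3.68e-06) and 2.09 ± 0.17 (SE; limma adjusted p = 3.50e-05). Its neighbour Gr28a, 613 bases away on 2L, had means of 0.0256 RPKM in EE, 0.00531 in progenitors and 0.0130 in the libraries labelled EC.

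Among the 9 sugar receptors, 3 reached RPKM 1. Gr43a, a fructose receptor that also senses internal nutrients in the brain, had 3.08, 2.93 and 2.76 RPKM in EE, 0.247 to 1.49 in progenitors and 0.0756 to 0.374 in the libraries labelled EC. It rose by 1.12 ± 0.22 (SE; limma adjusted p = 0.00252) and by 1.66 ± 0.16 (SE; limma adjusted p = 8.83e-05). The first call was lost without the filter and when any EE library was left out (highest adjusted p of all alternatives 0.0170). Gr64f, a sugar co-receptor, had 1.04, 1.43 and 1.21 RPKM in EE but 0 to 0.114 in progenitors and 0 to 0.0698 in the libraries labelled EC. It rose by 1.08 ± 0.13 (SE; limma adjusted p = 9.83e-05) and 1.11 ± 0.13 (SE; limma adjusted p = 2.38e-04). Gr61a, a glucose receptor, had the other pattern, with 1.33 to 6.17 RPKM in progenitors, 1.08 to 1.22 in EE and 0.639 to 1.20 in the libraries labelled EC.

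Gr64a, another sugar receptor of the same cluster on 3L as Gr64f, lay just below the threshold at 0.964, 0.866 and 1.02 RPKM in EE. It had at most 0.177 in progenitors and 0.0339 in the libraries labelled EC, and did not pass the filter at RPKM 1. Without a filter it was called in both comparisons (0.88 ± 0.06, SE; limma adjusted p = 8.37e-05, and 0.95 ± 0.04, SE; limma adjusted p = 0.00119), as it was with the filter at 0.3 and by limma-voom. The genes between them, Gr64b, Gr64c, Gr64d and Gr64e, were listed at 0 in all 11 wild type libraries. Each shares 97.3 to 100% of its exonic bases with a neighbour of the cluster, so an own level cannot be read from these columns. Gr5a, a trehalose receptor with 74.4% of its bases shared, had means of 0.0487 to 0.0710 RPKM in the 3 cell types.

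The 7 bitter receptors were uneven. Besides Gr89a, Gr93a, which is required for the response to caffeine, had 0.973, 1.51 and 1.12 RPKM in EE, 0.153 to 0.486 in progenitors and 0 to 0.0771 in the libraries labelled EC. It did not pass the filter, and without it was called against progenitors (0.79 ± 0.11, SE; limma adjusted p = 0.00232) and against the libraries labelled EC (1.07 ± 0.10, SE; limma adjusted p = 0.00418). Gr66a and Gr33a, receptors present in most bitter neurons, had means of 0.262 and 0.0179 RPKM in EE, and Gr32a 0.524. Gr39a was below 0.05 in each wild type library, and Gr47a was listed at 0 in all of them.

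Gr93a and Gr93b lie 8507 bases apart on 3R and differed in their highest cell type. Gr93b had 3.83, 0.680 and 1.10 RPKM in the libraries labelled EC, 0.208 to 0.838 in progenitors and 0.0670 to 0.271 in EE. The EC mean of 1.87 ± 1.71 (SD, n = 3) rests largely on replicate 1, and without that library Gr93b did not reach 1. In EE against the libraries labelled EC it did not pass the filter at RPKM 1. On the log2(RPKM + 1) scale its difference was -1.17 ± 0.43 without a filter (SE; limma adjusted p = 0.134) and -1.17 ± 0.35 with the filter at 0.3 (SE; limma adjusted p = 0.0252), neither of which was a call. By limma-voom on implied reads it was called (-3.56 ± 0.83 on the log2 scale, SE; adjusted p = 0.00749), so the call depends on the method.

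Gr2a rose in EE as well, at 1.79, 1.79 and 2.55 RPKM, with 0 to 0.166 in progenitors and 0 to 0.167 in the libraries labelled EC. It rose by 1.47 ± 0.14 (SE; limma adjusted p = 2.84e-05) and 1.49 ± 0.16 (SE; limma adjusted p = 1.33e-04). Of its 1562 exonic bases, 1186 lie on the same strand as the microtubule-binding gene futsch, which had a mean of 3.22 RPKM in EE, 0.532 in progenitors and 0.876 in the libraries labelled EC. Reads over these bases cannot be told apart by gene, and whether any of them entered the Gr2a value was not tested. Gr10a, Gr64b and Gr64c share 100% of their exonic bases with another gene and had no implied read in wild type cells. If shared reads were left out there, the Gr2a value rests on its other bases alone. Gr77a, the highest member just below RPKM 1, had 1.36, 0.761 and 0.818 in EE and at most 0.0539 in progenitors, and Ir68a, a moist-air receptor, had a highest mean of 0.791 in progenitors.

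Of the 4 ionotropic co-receptors, only Ir25a, which joins many tuning subunits, reached RPKM 1. It had 1.06, 1.06 and 0.984 in EE, 0.0725 to 0.290 in progenitors and 0.140 to 0.353 in the libraries labelled EC, with no overlap. Without the filter it was called by 0.77 ± 0.06 (SE; limma adjusted p = 2.43e-04) and 0.70 ± 0.08 (SE; limma adjusted p = 0.00623). Ir8a, the co-receptor for acid-sensing subunits, had 0.435, 0.389 and 0.425 RPKM in EE against at most 0.0792 in progenitors and 0.120 in the libraries labelled EC. Ir93a had its highest mean, 0.697 ± 0.105 (SD, n = 3), in the libraries labelled EC, and Ir76b, a co-receptor in taste and in amine detection, was at most 0.0334 RPKM in any wild type library.

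Cool sensing in the fly uses Ir21a together with Ir25a and Ir93a, and humidity sensing uses Ir40a or Ir68a with the same co-receptors. Ir21a had 2.57, 2.39 and 1.57 RPKM in EE, 0.0315 to 0.407 in progenitors and 0.249 to 0.531 in the libraries labelled EC. It rose by 1.36 ± 0.18 (SE; limma adjusted p = 2.00e-04) and 1.15 ± 0.19 (SE; limma adjusted p = 0.00124). In both comparisons Ir21a passed the filter through EE alone and had to differ. Without the filter the call against the libraries labelled EC was lost (limma adjusted p = 0.0152). An antisense RNA, asRNA:CR43609, covers 2087 of its 2629 exonic bases and was listed at a mean of 0.0171 RPKM in EE. In the differently listed Sox100B columns it had means of 0.506 in Sox100B-RNAi and 0.451 in the libraries labelled Sox100B-OE. Its expression in EE can therefore not be read from the listed value. Ir93a and Ir40a had EE means of 0.267 and 0.0951, so of these genes Ir21a and Ir25a were higher in EE and Ir93a was not. The carbon dioxide receptors Gr21a and Gr63a, which work as a pair, had means of 0 and 0.571 RPKM in EE.

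Ir76a, an antennal receptor that uses Ir76b as its co-receptor, was the member called lower in EE. Progenitors had 5.30, 5.47, 4.48, 4.63 and 5.86 RPKM, the libraries labelled EC 2.46, 1.88 and 3.76, and EE 0.981, 1.40 and 1.45. The 3 cell types did not overlap, and the order was progenitors, then libraries labelled EC, then EE. The difference of EE from progenitors was -1.43 ± 0.16 (SE; limma adjusted p = 6.22e-05), and from the libraries labelled EC -0.67 ± 0.23 (SE; limma adjusted p = 0.0370), which was not called. It shares 297 of 2109 exonic bases with CG14102 on the opposite strand, whose means were 1.03 RPKM in progenitors and 1.13 in EE.

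Between the libraries labelled EC and progenitors, no receptor gene was called. Every library labelled EC was below every progenitor library for 7 receptor genes, among them Ir76a and Gr61a. For 4 others, every library labelled EC was above every progenitor library. The share of all features that separated in either way is not given here, so these counts are not read as a result about the receptor genes. Of 6 genes tested, 0 were called, against 3.56% of features called higher and 16.5% called lower. At an unadjusted limma p under 0.05, 3 of the 6 differed, as did 4047 of 7762 features. By limma-voom on implied reads 0 of 18 genes were called, against 1574 of 9507 features. With limma-voom 7 genes had an unadjusted p under 0.05, as did 4564 of the 9507 features. Those closest to a call were Gr61a at -1.18 ± 0.33 (SE; limma adjusted p = 0.0179) and Ir76a at -0.76 ± 0.23 (SE; limma adjusted p = 0.0232). All features were shifted by a median of -0.46, and by -0.05 after median-of-ratios scaling. Gr61a was called without progenitor replicate 3 (-1.40; adjusted p = 0.00406) and Ir76a without EC replicate 3 (-0.96; adjusted p = 0.00805).

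The progenitor libraries differed among themselves. Ir10a had 2.35 and 2.17 RPKM in replicates 4 and 5 but 0.475, 0.298 and 1.26 in replicates 1 to 3. Gr47b had 2.34 and 2.10 against 0.484, 0.597 and 0.682, and Gr61a 4.51 and 6.17 against 2.72, 3.24 and 1.33. Ir21a and Ir85a ran the other way. Ir10a and Gr47b therefore reach the progenitor mean of 1 through replicates 4 and 5 (and for Ir10a replicate 3). With progenitor replicates 4 and 5 alone, EE had 7 of 10 genes called higher and 3 lower, beside 1785 and 1542 of 7696 features. The additional falls were Gr61a (-1.54, limma adjusted p = 3.39e-04) and Gr47b (-0.73, limma adjusted p = 0.00712). With replicates 1 to 3 alone, 7 of 9 were called higher and 1 lower, beside 1643 and 1030 of 7882 features.

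RNA of enteroendocrine genes was present in every group, and its level was set beside the receptor genes. As a share of the EE mean, the summed enteroendocrine markers were 6.24 to 12.6% in progenitors and 0.923 to 3.88% in the libraries labelled EC. In the same terms Gr28b was at 0.501 to 2.26% in progenitors, Ir85a at 0.171 to 6.23%, Gr43a at 8.43 to 51.1% and Gr89a at 18.2 to 54.4%. Single markers differed in this share. Mean RPKM in progenitors and in EE was 5387 and 32446 for NPF, which holds much of the progenitor sum, but 68.2 and 6252 for AstA. The part of enteroendocrine RNA in the progenitor values was not tested. Markers of other cells moved as well. The 7 neuron and glia markers summed to 12.9 to 16.3 RPKM in EE, 2.86 to 8.98 in progenitors and 3.93 to 7.97 in the libraries labelled EC, with 4, 1 and 2 of them at a mean of 1 or more, and none at 0 throughout a cell type. Of these, elav had means of 4.37, 3.85 and 2.86 RPKM in EE, progenitors and libraries labelled EC, and the higher EE sum came from Gad1 (4.42) and ChAT (4.17), whereas the glial gene repo was at 0.182. The 5 haemocyte markers summed to 3.11 to 11.9 RPKM in EE and 1.13 to 3.36 in progenitors, against 0.481 to 1.24 in the libraries labelled EC. The 9 muscle markers summed to 7.92 to 11.6 RPKM in EE, 1.04 to 2.05 in progenitors and 2.41 to 13.9 in the libraries labelled EC, which spans the EE range. The part of such cells in the receptor values was not tested.

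Components that act downstream of chemoreceptors were read from a list of 31 genes, of which 30 were found and 16 tested in EE against progenitors. There 7 rose and 3 (Galphai, sl and pain) fell, beside 20.1% of all features called higher and 14.5% called lower. Against the libraries labelled EC 16 were tested, 7 rose and 1 fell, beside 26.5% and 6.22% of all features. Mean RPKM in progenitors and in EE was 7.86 and 3.13 for sl, and 7.75 and 2.22 for pain. TrpA1, a channel gated by irritant chemicals and heat, had a mean of 102 ± 18.4 RPKM (SD, n = 3) in EE and 8.90 ± 3.47 (SD, n = 5) in progenitors. It rose by 3.44 ± 0.28 (SE; limma adjusted p = 9.41e-06) against progenitors. The G protein subunits Galphao, Galphaf, Gbeta5 and Ggamma30A and the phospholipase Plc21C rose in both comparisons, and Galphai fell in both. In other families, 3 of 60 olfactory receptor genes and 2 of 13 ionotropic glutamate receptor genes reached a mean of 1, with none called in EE against progenitors by limma (2 tested in each family, 1 of them at an unadjusted p under 0.05). Of all 8161 features tested there, 4657 had an unadjusted limma p under 0.05. In the ppk family of sodium channels, ppk17 was at 152 ± 25.1 RPKM (SD, n = 3) in EE and 4.70 ± 2.38 (SD, n = 5) in progenitors.

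The Sox100B libraries were listed differently from the wild type libraries, and no untreated library is among them. Of the implied read totals, 94.5 to 95.1% fell on listed genes here, against 62.4 to 77.2% in the wild type libraries. Genes of the mitochondrial genome held 17.1 to 31.8% of the listed reads in the Sox100B libraries and 0% in the wild type libraries. In addition, genes that share exonic bases carried reads in the Sox100B columns that they lacked in the others. The part of each in the gap was not tested. Group and processing therefore cannot be told apart in any comparison with progenitors or another wild type group. Sox100B itself, the targeted gene, had 20.3 to 34.4 RPKM in Sox100B-RNAi, 85.5 to 144 in the libraries labelled Sox100B-OE and 69.7 to 183 in progenitors, so its level in the libraries labelled Sox100B-OE was within the range of progenitors.

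Among the 126 genes, 23 share exonic bases with another gene (12 Gr and 11 Ir), 10 of them with a gene on the same strand, and 11 share at least 50% of their bases. Of the 10 genes at 0 in all wild type libraries, 7 share bases. In both Sox100B groups, 11 of the 23 sharing genes and 12 of the 103 others had means above every wild type mean. The share over all features was not computed, so these counts are not read as a result about the receptor genes. All features tested were shifted above progenitors by medians of 0.20 in Sox100B-RNAi and 0.26 in the libraries labelled Sox100B-OE. Ir75d differed most plainly between the wild type and Sox100B columns. It shares 2098 of 2312 exonic bases with Prp6 and COX6AL2, was at 0 in all 11 wild type libraries and at 3.39 to 5.56 RPKM in all 6 Sox100B libraries. Gr64b and Gr64c, whose exonic bases are the same, had the same value in each Sox100B library (0.0119 to 0.0748 RPKM).

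**Figure D4:**
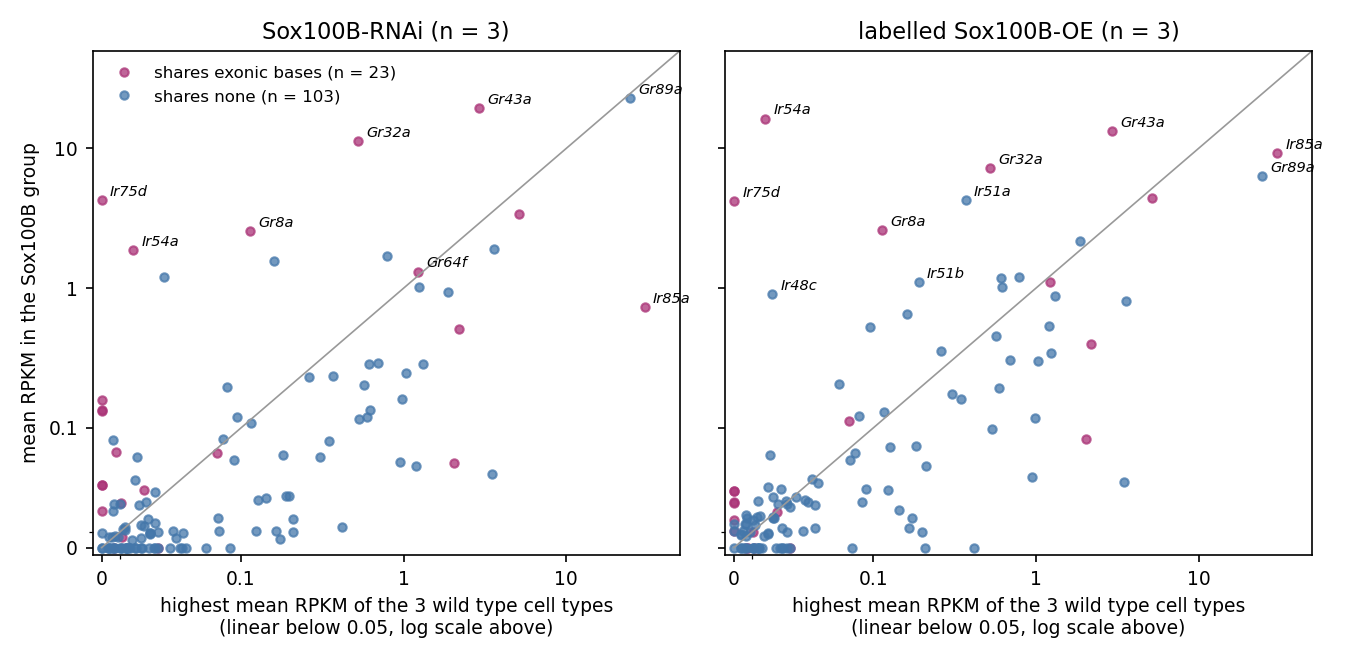
Mean RPKM of each of the 126 receptor genes in Sox100B-RNAi (left) and in the libraries labelled Sox100B-OE (right) against the highest mean of the 3 wild type cell types. Axes are linear below 0.05 and logarithmic above, the line marks equal values, and purple points are the 23 genes that share exonic bases. Gr43a, Gr32a, Gr8a, Ir75d and Ir54a, all purple, lie far above the line in both panels.

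In Sox100B-RNAi against progenitors, 6 of 12 receptor genes tested were called, all higher, where 23.0% of 8675 features were called higher and 2.26% lower. Of the 6, all but Gr43a passed the filter through the Sox100B-RNAi libraries alone and had to differ. Without the filter, 6 of 126 genes (4.76%) were called higher beside 10.6% of all features. All 6 genes called with the filter share exonic bases with a neighbour. When any Sox100B-RNAi library was left out, 5 to 7 genes passed the filter and 1 was called. Gr43a had 19.5, 18.0 and 20.7 RPKM in Sox100B-RNAi, Gr32a 12.9, 9.48 and 11.6 and Ir75d 3.79, 3.39 and 5.56. Gr8a, which takes part in L-canavanine sensing, Ir54a and Gr64f were lower, at 2.86, 1.83 and 3.02, at 1.35, 1.74 and 2.55, and at 1.41, 1.33 and 1.20. The neighbours were themselves expressed, since Dhx15, which overlaps 155 bases of Gr43a, was at a mean of 17.4 RPKM and CG6230, which overlaps 164 bases of Gr32a, at 13.4. When only features that share no exonic base were tested, after rescaling to their own total, 0 of 8 receptor genes were called (3.33% of 5284 features). Of the 8, 3 had an unadjusted limma p under 0.05, as did 1270 of the 5284 features. By limma-voom on implied reads of all genes, 10 of 25 were called, beside 2589 of 9973 features.

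In the libraries labelled Sox100B-OE against progenitors, 8 of 13 receptor genes tested were called higher and 1 lower, beside 28.9% and 4.83% of 8918 features. Of these, Gr32a, Gr93b, Ir51a, Gr8a, Ir54a and Ir75d passed the filter through the libraries labelled Sox100B-OE alone and Gr61a through progenitors alone, so that they had to differ. Without the filter, 13 of 126 genes (10.3%) were called higher beside 14.3% of all features. When any library labelled Sox100B-OE was left out, 7 genes passed the filter and 1 to 2 were called. Besides Gr43a, Gr32a, Gr8a, Ir75d, Ir54a and Ir85a, which share bases, these were Ir51a and Gr93b, which share none, and Gr61a, which fell. Ir51a, annotated as a pseudogene, had 2.26, 5.75 and 4.86 RPKM there against 0.0221 to 0.0663 in progenitors, and rose by 2.27 ± 0.21 (SE; limma adjusted p = 1.41e-05). The fall of Gr61a (-1.25 ± 0.32, SE; limma adjusted p = 0.00992) was lost in 12 of 17 alternatives, among them the removal of progenitor replicate 1, 2, 4 or 5 or of any library labelled Sox100B-OE. With features that share no base, 4 of 12 receptor genes were called, all higher (12.5% of 5412 features), namely Ir51a, Ir48c, Ir51b and Gr93b.

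Both Sox100B groups were listed in the same way, so they can be compared with each other. In the libraries labelled Sox100B-OE against Sox100B-RNAi, 3 of 13 receptor genes tested were called higher and 1 lower, beside 10.5% and 5.56% of 8848 features. Without the filter, 2 of 126 (1.59%) were called higher beside 2.90% of all features. When any library labelled Sox100B-OE was left out, 12 were tested and 1 to 2 were called. Ir54a had 13.1, 20.1 and 15.8 RPKM against 1.35, 1.74 and 2.55, a difference of 2.59 ± 0.24 (SE; limma adjusted p = 1.06e-04). Its neighbour sub, a kinesin-like gene that overlaps 506 of its 1905 exonic bases on the opposite strand, had means of 13.1 and 3.60. Ir85a had 4.28, 13.2 and 10.4 RPKM against 0.156, 1.84 and 0.191, a difference of 2.59 ± 0.44 (SE; limma adjusted p = 0.00296) that was lost without RNAi replicate 1 or 3 or OE replicate 2 or 3 (highest adjusted p = 0.0465). Beside it, Pif1B had means of 2.69 and 0.239 RPKM, and the enteroendocrine markers summed to 11.3 to 20.3% of the EE mean in the libraries labelled Sox100B-OE and to 2.91 to 5.88% in Sox100B-RNAi. The marker genes moved both ways, since NPF, Orcokinin and Tk were called higher and AstA, Mip, CCHa1 and CCHa2 lower, with means of 8830 and 726 RPKM for NPF, 4601 and 452 for Orcokinin, 23.9 and 411 for AstA and 65.3 and 728 for CCHa2 in the libraries labelled Sox100B-OE and in Sox100B-RNAi. The receptor genes called higher in EE were also uneven in the libraries labelled Sox100B-OE. As a share of the EE mean, Gr28b was there at 0.389 to 1.80%, Gr2a at 0 to 6.69%, Ir21a at 11.4 to 24.3%, Ir85a at 14.1 to 43.5%, Gr89a at 20.04 to 33.8%, Gr64f at 61.7 to 133% and Gr43a at 402 to 504%. All shares of the EE mean set Sox100B columns against EE columns, which were listed differently, so group and processing cannot be told apart in them. Of these receptor genes, only Gr28b and Gr89a share no exonic base with another gene. The part of enteroendocrine RNA in the Ir85a value was not tested.

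Gr89a was the member called lower in this comparison, at 5.89, 4.92 and 8.29 RPKM against 28.1, 25.7 and 14.6 in Sox100B-RNAi, without overlap. The difference was -1.66 ± 0.29 (SE; limma adjusted p = 0.00317), and it was lost without OE replicate 1 or 2 (highest adjusted p of all alternatives 0.0330). Ir51a was higher by 2.04 ± 0.27 (SE; limma adjusted p = 8.13e-04), but it passed the filter through the libraries labelled Sox100B-OE alone, and the call was lost without the filter (adjusted p = 0.0197). Among features that share no base, 4 receptor genes were called higher and 1 lower, where 18.3% of 5236 features were called. Ir51a, its neighbour Ir51b 1658 bases away on 2R, Ir48c and Gr10b were higher, and Gr89a was lower (-1.87 ± 0.33, SE; limma adjusted p = 0.00417). Ir51b had 0.851, 1.51 and 0.953 RPKM in the libraries labelled Sox100B-OE and at most 0.0621 in Sox100B-RNAi, and Ir48c 1.06, 0.683 and 0.982 against at most 0.0605. Gr59a and Gr94a had their highest means in Sox100B-RNAi, at 1.20 ± 0.882 and 1.57 ± 1.27 RPKM (SD, n = 3), with wide spread between its libraries.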

How the data were processed

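The authors deposited 1 table of RPKM values with a column per library and 17490 features, of which 1 had missing values and was left out. The submitters' processing notes name STAR, featureCounts 1.6.3, DESeq2 and the genome build BDGP6. The read total behind these RPKM values, and how reads over shared bases were assigned, are not given in the sources used here. Exonic lengths, positions and shared bases came from the Ensembl annotation of BDGP6, which matched 17216 features and all 126 receptor genes. After multiplication by exonic length, 98.1 to 98.5% of the low values of a library (871 of 885 for the receptor genes) lay within 0.05 of a whole multiple of a common step, taken as 1 read, which gave implied reads. These carry no molecular identifiers, so they describe counting error only.

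Groups came from the sample titles. Tests used limma 3.58.1 in R 4.3.3 (lmFit, eBayes with a trend, 2-sided) on log2(RPKM + 1), with the libraries of the groups compared, features that reached RPKM 1 in 3 or more of these, and calls at an adjusted p below 0.01 and a difference above 0.5, thresholds taken from the study's methods. The procedure was tested on simulated counts, with changes placed only in genes of higher level than most receptor genes have. It therefore does not show how calls behave at the low levels of most receptor genes. The genes named were those with a mean of 1 in a wild type cell type, those called in any of the 6 comparisons, the 3 highest below 1 and lists of co-receptors and of temperature, humidity, sugar, bitter, carbon dioxide and Gr28 receptors. Others named for their values in the text (Ir48c, Ir51b, Gr10b, Gr59a, Gr94a, ppk17, TrpA1, sl, pain and G protein genes) were chosen after their values were seen. Members and lists were chosen with earlier results of these data known. The listed symbols itpr, esg, Dl and btl had no match and were not analysed here. Alternatives were no filter, a filter at 0.3, 0.1 as the pseudocount, median-of-ratios scaling, an adjusted p below 0.05, a replicate block, limma-voom on implied reads, leaving out libraries, 1 fit of all wild type libraries and features sharing no exonic base. No sequence is printed, since the tables used here hold none.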

Additional observations from a re-analysis of the deposited data

Results flagged for a closer look

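In the 38 receptor genes selected by the naming rule, the 5 progenitor libraries were searched for a single library far from the others (a gap of more than 0.71 of the range), which chance gives in about 1 of 20 groups. Gr66a stood at 0.422 RPKM in replicate 4 from 18 implied reads, above the other progenitor libraries. The other 4 values found rest on 1 to 4 implied reads each, namely Gr77a at 0.0539, Gr28a at 0.0266 and Ir76b at 0.0163 RPKM in replicate 3, and Ir54a at 0.0871 RPKM in replicate 5.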

How the results depend on the processing

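No called difference of a receptor gene changed its direction under the alternatives run. Alternatives were not run for the signalling and channel genes. The number of genes tested changed with the alternatives, so calls over all features are given beside each count. In EE against progenitors 8 of 11 receptor genes were called (2823 of 8161 features). The filter at 0.3 gave 13 of 27 (3024 of 9759), and limma-voom on implied reads 16 of 30 (3449 of 9803). In EE against the libraries labelled EC 7 of 10 were called (2568 of 7847 features), and 12 of 29 by limma-voom (2464 of 9833). In the libraries labelled EC against progenitors 0 of 6 were called (1556 of 7762 features), and 2 of 6 at an adjusted limma p below 0.05 (3234 of 7762). With progenitor replicates 4 and 5 only, 1 of 4 was called (836 of 7141), and in 1 fit of all wild type libraries 2 of 6 (2328 of 7762). In Sox100B-RNAi against progenitors 6 of 12 were called (2191 of 8675 features), and 10 of 25 by limma-voom (2589 of 9973). Among features that share no exonic base 0 of 8 were called (176 of 5284). In the libraries labelled Sox100B-OE against progenitors 9 of 13 were called (3009 of 8918 features), and 14 of 28 with the filter at 0.3 (3263 of 10490). Among features that share no exonic base 4 of 12 were called (676 of 5412). Against Sox100B-RNAi 4 of 13 were called in the libraries labelled Sox100B-OE (1419 of 8848 features), and 2 of 126 without a filter (654 of 17489). The filter at 0.3 gave 7 of 25 (1515 of 10304), and limma-voom 8 of 27 (1719 of 9943). A mean of 1 was reached by 14 genes, and a value of 1 in every library of a cell type by 9.

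Leaving out 1 library at a time gave 2 to 9 calls in EE against progenitors, 2 to 7 in EE against the libraries labelled EC, 0 to 1 in the libraries labelled EC against progenitors, 1 to 6 in Sox100B-RNAi, 1 to 9 in the libraries labelled Sox100B-OE and 1 to 4 between the Sox100B groups, while 13 to 15 genes reached a mean of 1. Over all features the calls were then 1460 to 3091, 912 to 3348, 328 to 1758, 625 to 2149, 1037 to 3219 and 509 to 1281 in the same order. Where a group of 3 lost a library, fewer genes could pass the filter of 3 libraries. Over all features, median-of-ratios scaling changed the calls higher and lower from 2080 and 488 to 1417 and 873 in EE against the libraries labelled EC, from 276 and 1280 to 517 and 423 in those libraries against progenitors, and from 2578 and 431 to 2127 and 937 in the libraries labelled Sox100B-OE.

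Replicate numbers recur across groups, but same-numbered libraries did not reach a correlation of 0.1 in every pair of any comparison (r between -0.13 and 0.34), so they were taken to share only a number. In the Sox100B groups all 3 pairs were positive (0.34, 0.03 and 0.16), but replicate 2 of the libraries labelled Sox100B-OE correlated best with replicate 3 of Sox100B-RNAi (0.07), and the block raised the calls over all features from 1419 to 1662. With the replicate number as a block, 8, 7, 0, 7, 8 and 4 receptor genes were called in the 6 comparisons in the order above. Over all features 2533, 2408, 63, 2052, 2826 and 1662 were called. The 63 stand in place of 1556 in the libraries labelled EC against progenitors, where replicates 4 and 5 have no partner. Depth limits statements on genes below about 0.1 RPKM.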
